A study of Mus musculus with 8 samples.

Results

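Intronic chromatin regions that were called open in the cortex of mice with narrowed carotid arteries, and not in sham-operated mice, are described here. Merging the ATAC-seq peaks of all 8 libraries gave 197916 regions, of which 87877 were intronic. The gained intronic regions were chosen by their peak calls: a peak in all 4 BCAS libraries, none in any of the 4 sham libraries, and a midpoint more than 3 kb from every transcription start site (TSS), inside a transcript and outside every exon. This rule gave 1429 regions, 1.63% of all intronic regions, and the reverse rule (all 4 sham libraries and no BCAS library) gave 96, or 0.109%. The reverse count rose most when the BCAS library with the most peaks (160848) was left out along with a sham library. The reverse rule then gave 672 to 1249 regions and the gained rule 1577 to 2015. With another BCAS library left out instead, they gave 153 to 484 and 1860 to 2817. The part of peak number in this was not tested. As the calls of BCAS and sham libraries themselves selected the members, their absence from sham and presence in BCAS is a description and was not tested. The libraries came from C57BL/6 mice, given as male and 14 weeks old, 3 weeks after a sham operation or after bilateral carotid artery stenosis (BCAS), in which a microcoil of 0.16 mm was placed on the right and one of 0.18 mm on the left common carotid artery. Each library was made from nuclei of the cerebral cortex (the right cortex per the labels, although the study's supplement describes the cortex of the whole brain), so all cell types were measured together. In such tissue, more cells of a type and more open chromatin per cell cannot be told apart.

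ATAC-seq reads where the Tn5 transposase can reach DNA, and peaks within introns are often enhancers, which bind transcription factors and act on a promoter at a distance. In microglia and other myeloid cells, enhancers are known to be opened by PU.1, a factor of the ETS family that binds purine-rich sites around GGAA, together with partners such as C/EBP, RUNX, IRF and MAF factors. The first intron of a gene is a common place for enhancers. The sham lists held 107482 to 145102 peaks and the BCAS lists 119660 to 160848. As only peak lists were used, the number of reads behind each peak is unknown. As a check of the tissue, a promoter peak (within 1 kb of a TSS) was found at 22 to 24 of 24 listed genes of excitatory neurons, depending on the library. Promoters of 30 listed microglia genes had a peak in 22 to 25 cases in sham and 28 to 29 in BCAS libraries, and those of 35 genes of phagocytosis and Fc receptor signaling in 22 to 23 and 32 to 33. For border macrophages and monocytes (20 genes) the numbers were 3 to 5 and 4 to 8, and for lymphocytes (24 genes) 5 to 6 and 5 to 7, with no peak in any library at 12 and 16 of them. Endothelial genes (22) had 9 to 16 and 14 to 19, and mural and fibroblast genes (20) 9 to 13 and 12 to 16. Inhibitory neuron genes (22) had 16 to 20 in both groups. No such count per library was made over all genes, so a rise is not shown to be particular to a list. The part of these differences between lists in the gain of intronic regions was not tested.

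Of the 1429 regions, 219 held the PU.1 sequence GAGGAAGT, on either strand, within 100 bp of the mean summit. For 8 host genes, the bases within 50 bp of the mean summit of their strongest such region are given here, because they show the site in its context. Each is read 5′ to 3′ from GRCm38 (mm10) on the strand on which the site reads GAGGAAGT, which stands in capitals.
Lrmda, chr14:22801470-22801570, minus strand: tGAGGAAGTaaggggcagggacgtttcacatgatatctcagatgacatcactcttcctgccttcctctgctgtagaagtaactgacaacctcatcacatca
Il15, chr8:82383411-82383511, minus strand: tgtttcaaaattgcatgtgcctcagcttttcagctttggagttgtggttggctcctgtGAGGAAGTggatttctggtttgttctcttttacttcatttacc
Lcp1, chr14:75195704-75195804, minus strand: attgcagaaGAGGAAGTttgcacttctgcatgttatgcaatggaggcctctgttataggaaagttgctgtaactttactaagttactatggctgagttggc
Plcg2, chr8:117543069-117543169, minus strand: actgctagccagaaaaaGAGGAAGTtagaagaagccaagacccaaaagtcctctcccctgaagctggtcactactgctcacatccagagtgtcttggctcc
Ccdc146, chr5:21386512-21386612, plus strand: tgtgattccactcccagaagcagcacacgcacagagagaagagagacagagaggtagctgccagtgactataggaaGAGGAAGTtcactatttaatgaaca
Atp6v0d2, chr4:19894757-19894857, minus strand: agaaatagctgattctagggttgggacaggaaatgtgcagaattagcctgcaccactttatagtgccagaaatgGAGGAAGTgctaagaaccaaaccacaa
Pard3b, chr1:62483149-62483249, plus strand: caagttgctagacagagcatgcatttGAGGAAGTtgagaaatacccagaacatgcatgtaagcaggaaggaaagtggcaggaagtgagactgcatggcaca
Msr1, chr8:39594887-39594987, minus strand: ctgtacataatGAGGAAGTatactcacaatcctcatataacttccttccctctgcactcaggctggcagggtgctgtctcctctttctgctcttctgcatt

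These 8 regions span introns near the start and far inside genes. Lrmda, whose product takes part in melanocyte differentiation, held its region in intron 5 of 6, and the peaks there had a fold enrichment over the local background of 18.5, 8.82, 14.2 and 11.6 in BCAS 1 to 4. Il15 encodes a cytokine that sustains natural killer and memory T cells, and its region, which also held NEUROD1, lay in intron 1 of 7 with folds of 10.7, 8.15, 6.48 and 8.79. The region of Lcp1, the actin-bundling L-plastin of leukocytes, lay in intron 1 of 15 (9.32, 5.43, 6.79 and 6.68). That of Plcg2, the phospholipase downstream of Syk in myeloid cells, lay in intron 2 of 32 (7.40, 5.81, 5.93 and 6.45). Atp6v0d2, a subunit of the proton pump of lysosomes, and Msr1, a scavenger receptor of macrophages, held theirs in intron 2 of 7 and intron 8 of 9. Ccdc146 (intron 2 of 18) and the polarity gene Pard3b (intron 20 of 22) complete the set. All 4 BCAS libraries had a peak at each site and no sham library did, as the rule required.

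The PU.1 sequence was more frequent in the gained intronic regions than in other introns. It was found in 15.3% of them (Wilson 95% interval 13.6 to 17.3%), against 2.70% (2.60 to 2.81%) of the 86448 other intronic regions, a difference of 12.6 points (10.8 to 14.6) and a ratio of 5.67. Among 5320 intronic regions that were likewise called in 4 libraries, but of another pattern, the share was 1.97% (1.63 to 2.38%), which lay 13.4 points lower (11.5 to 15.3). Over all 197916 merged regions it was 2.87%. Sequence was not used in choosing the members. The paper had, however, already reported PU.1 as the motif most enriched in loci gained in these same libraries. The share is therefore no independent result. The intervals cover counting error over regions, and regions are not replicates.

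The share was also taken by library. Around each library's own summits, 14.9%, 14.4%, 14.9% and 14.9% of the peaks in gained intronic regions held the sequence in BCAS 1 to 4 (14.8% ± 0.25, SD, n = 4). In the other intronic peaks of the same libraries it was 2.92% ± 0.0858 (SD, n = 4), with values of 2.93%, 2.79%, 2.96% and 2.98%. The intronic peaks of sham 1 to 4 held it in 1.91%, 2.02%, 2.13% and 2.36% (2.10% ± 0.192, SD, n = 4). As each BCAS library has a peak in the same 1429 regions by the rule, the small SD of the first share was set by the choice and is no spread between replicates.

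The share followed the pattern of calls over the 8 libraries. Among intronic regions without any sham peak, 3.78% held the PU.1 sequence when 1 BCAS library had a peak, 6.96% with 2, 9.11% with 3 and 15.3% with all 4. Among intronic regions of all 4 BCAS libraries, the share was 10.8% with 1 sham library, 8.44% with 2, 3.90% with 3 and 2.04% with all 4. Of the 96 regions of all 4 sham and no BCAS library, 0 held it, a count that leaves room for up to 3.125% (3 counts). Regions just short of the rule, with 3 BCAS and no sham (1514) or with 4 BCAS and 1 sham library (1146), therefore lay between the members and the remaining introns.

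**Figure D1:**
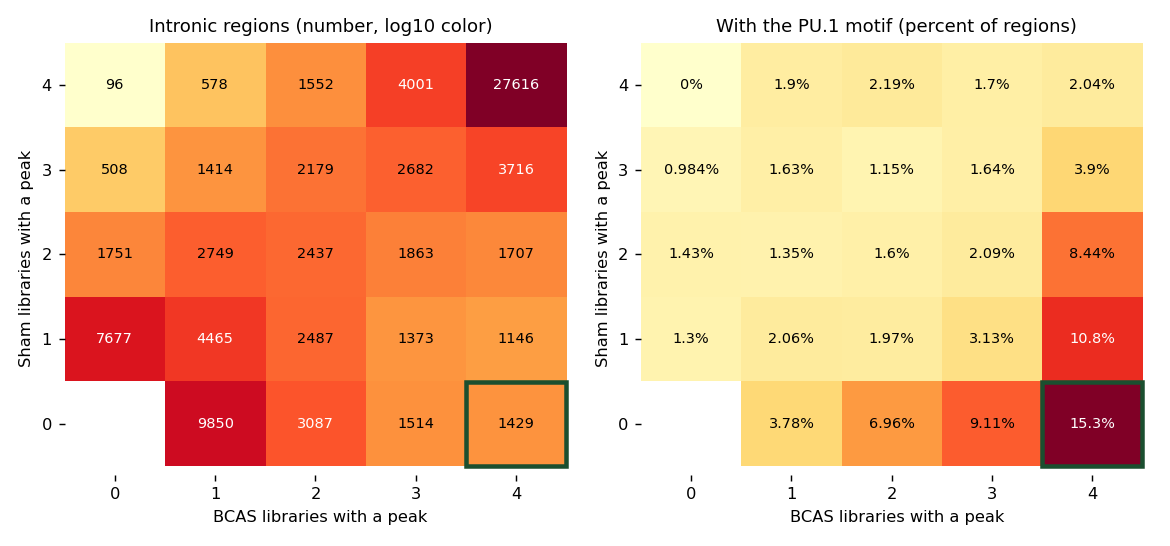
Intronic regions by the number of BCAS libraries (horizontal axis) and sham libraries (vertical axis) with a peak: number of regions (left, color on a log10 scale) and percent of them with the PU.1 sequence within 100 bp of the mean summit (right). The green frame marks the 1429 gained intronic regions, of which 15.3% held the sequence, against 2.04% of the 27616 regions of all 8 libraries.

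The PU.1 share was about as high in gained regions outside introns. It was 15.7% (13.1 to 18.8%) of 617 gained promoter regions and 15.5% (13.4 to 17.8%) of 1051 gained distal intergenic regions. The gained introns differed from these by -0.396 points (-3.95 to 2.91) and -0.184 points (-3.10 to 2.66), intervals that include no difference. By position within introns, the shares had overlapping intervals. The share was 15.1% (12.1 to 18.7%) of gained regions 3 to 10 kb from a TSS, 15% (12.7 to 17.7%) at 10 to 50 kb and 17.2% (12.4 to 23.5%) beyond 50 kb, and it was 15.1% in the first intron and 15.4% in later introns. By base composition, the PU.1 share was higher than in other introns in the classes of 40% GC and above, and not resolved below. The GC content around the summit had a median of 50.2% in gained and 48.3% in other intronic regions, and in the GC class of 45 to 50% the PU.1 share was 15.8% of 481 gained and 3.09% of 24860 other regions. At a GC content of 40 to 45%, it was 20.1% of 189 and 1.88% of 17687, at 50 to 55% 15% of 513 and 3.46% of 21508, and at 55% or more 12.4% of 218 and 2.95% of 12455. Under 40% it was 1 of 28 (3.57%, 0.633 to 17.7%) against 1.22% of 9938. Repeats, marked as such in the genome sequence, covered a median of 8.46% of the window in gained and 5.97% in other intronic regions.

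Of the 219 gained regions with the PU.1 sequence, 155 held it within 50 bp of the mean summit. The regions with it had slightly higher median folds than those without, which was not tested. The median fold enrichment was 5.97, 5.335, 5.58 and 5.28 in BCAS 1 to 4 for the 219 regions with the sequence, and 5.86, 5.09, 5.55 and 5.16 for the other 1210. Their median width was 353 and 360 bp.

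Several other motifs were also more frequent than in other introns. They are grouped here by the direction of the difference and not by cell type. The composite of PU.1 with an interferon regulatory factor (PU.1-IRF) was found in 4.83% (3.83 to 6.07%) against 0.851%, a ratio of 5.67, as for PU.1 itself. The NF-kB sequence GGGANTTCC was found in 1.68% against 0.677%, and TGTGGTTT, bound by RUNX factors of blood cells, in 3.57% against 1.71%. The MAF sequence TGCTGAC was found in 9.45% (8.04 to 11.1%) against 4.84%, a difference of 4.61 points (3.19 to 6.24). The interferon-stimulated response element was found in 4.76% against 2.68%, and the C/EBP sequence TTGCNNAA in 14.4% against 10.1%, a difference of 4.28 points (2.55 to 6.21). All of these differences had intervals above 0, also against the introns called in 4 libraries of another pattern. Against gained promoter and gained distal intergenic regions, the interval of the difference included 0 for each of these motifs. For example, C/EBP was found in 14.9% and 16.4% of those and MAF in 7.62% and 8.37%. PU.1 and PU.1-IRF share the GGAA core, and a site that fits both was counted for both: 16 gained regions held both sequences.

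The sequences of NEUROD1, AP-1, MEF2 and SOX factors were less frequent than in other introns. CAGATGG, read by NEUROD1 and related factors of excitatory neurons, was found in 6.02% (4.90 to 7.37%) of gained and 9.88% of other intronic regions, 3.86 points lower (the interval of the difference was -5.00 to -2.49). The AP-1 sequence TGANTCA, bound by FOS and JUN dimers, was found in 11.6% against 16.2% (-4.55 points, -6.13 to -2.77), and MEF2 in 2.94% against 4.54% (-1.61 points, -2.38 to -0.587). The SOX sequence AACAATGG was found in 5 gained regions (0.350% against 0.851%, with an interval of the difference of -0.712 to -0.0312 points). Against gained promoter and gained distal intergenic regions, the intervals for NEUROD1, AP-1, MEF2 and SOX included 0. For CTCF (CCACNAGG, 3.43% against 4.13%), SP1 (GGGGCGGG, 1.05% against 1.09%) and SMAD (GTCTAGAC, 0.280% against 0.191%) the intervals of the difference included 0. The lysosomal TFE sequence TCACGTGA and the long ETS site ACCGGAAGT were rare, in 5 gained regions (0.350% against 0.130% of the others) and in 4 (0.280% against 0.0416%). EGR1 (GCGTGGGCG) had 0 matches in the 1429 windows, a count that leaves room for up to 0.2099% (3 counts), against 0.0868% of other introns. In all, 576 gained regions (40.3%) held none of the 17 sequences, against 52.1% of the others. A match is a description of the letters in the window and shows no binding.

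**Figure D2:**
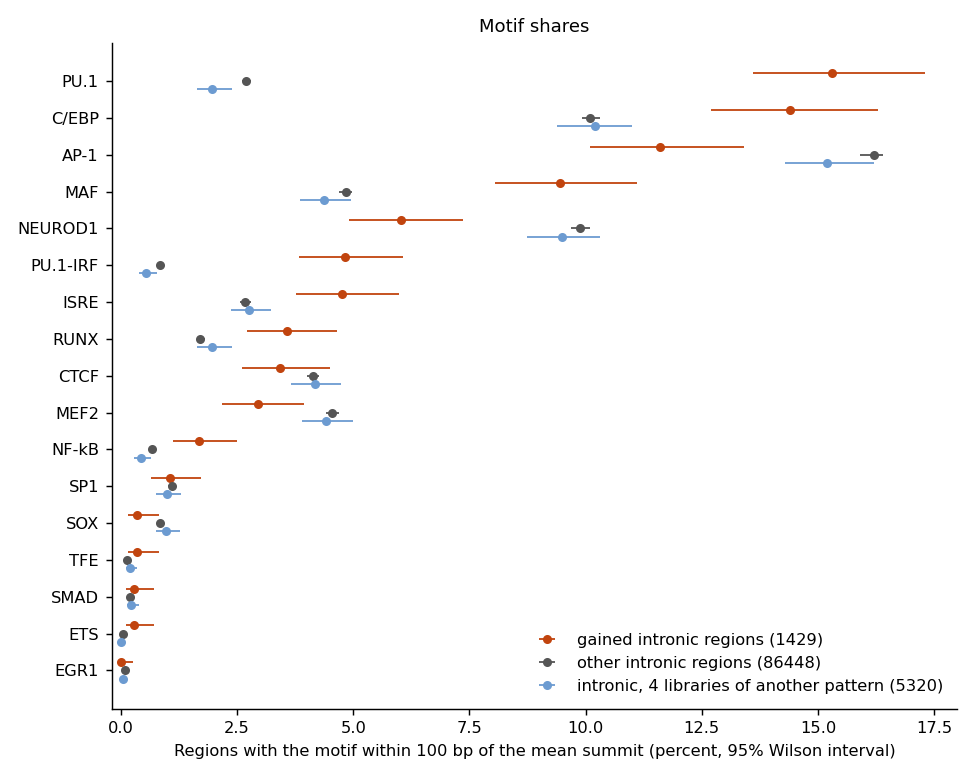
Percent of regions with each of 17 sequences within 100 bp of the mean summit (horizontal axis; bars are Wilson 95% intervals) for the gained intronic regions, all other intronic regions and intronic regions called in 4 libraries of another pattern. The gained regions lay highest for PU.1 (15.3% against 2.70%) and below the others for AP-1 (11.6% against 16.2%) and NEUROD1 (6.02% against 9.88%).

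Peaks in libraries left out of the choice were also counted, as a description. The rule was applied to 6 libraries, leaving out 1 sham and 1 BCAS library in each of the 16 possible pairs, which chose 1577 to 2817 regions per pair. A peak was then looked for in the left-out libraries. The chosen regions had a peak in 94.9%, 75.8%, 79.8% and 68.8% of cases in BCAS 1 to 4, and in 4.12%, 16.5%, 25.9% and 18.9% in sham 1 to 4 (means over 4 pairs each). In all 16 pairs the share was higher in the left-out BCAS library than in the left-out sham library, and each of the 4 BCAS means exceeded each of the 4 sham means. Intronic regions called in 3 of the 6 libraries with any other pattern numbered 6149 to 7289 per pair and included the reverse pattern. They had a peak in 79.0%, 41.5%, 35.7% and 31.6% in BCAS 1 to 4. In sham 1 to 4 it was 31.7%, 58.4%, 69.5% and 31.5%, so the groups overlapped. The reverse choice was a peak in all 3 sham and no BCAS library of the 6 (153 to 1249 regions per pair). The left-out BCAS libraries had a peak in 77%, 35.5%, 14.7% and 18.5% and the sham libraries in 41.8%, 64.1%, 77.9% and 34.5%. These means overlapped, mainly through BCAS 1, and in every pair without BCAS 1 the sham share was the higher. With BCAS 1 left out, the reverse choice gave 672 to 1249 regions and the gained choice 1577 to 2015. With another BCAS library left out, they gave 153 to 484 and 1860 to 2817. BCAS 1, with the most peaks, and sham 1, with the fewest, were the highest and the lowest of the chosen regions. The pairs share libraries. A region with a peak in all 4 BCAS and no sham library also meets the rule in every set of 6. The 16 pairs are therefore not independent of each other or of the gained regions, and no test was made.

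**Figure D3:**
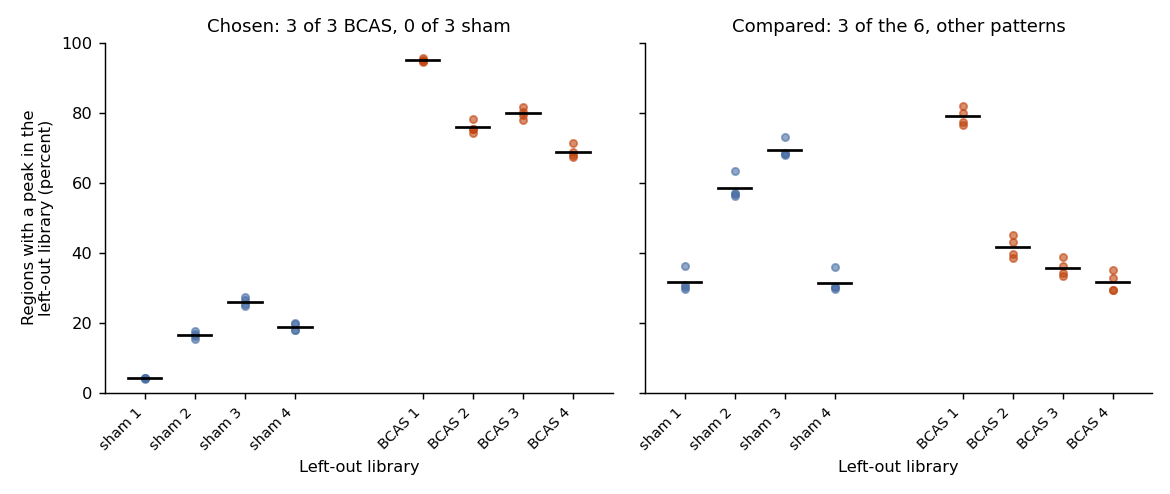
Percent of intronic regions with a peak in a library that was not used to choose them (vertical axis), by left-out library (horizontal axis). Points are the 4 pairs per library and bars their mean; for regions chosen in 3 BCAS and no sham library of the other 6 (left), the BCAS libraries (68.8% to 94.9%) lay above the sham libraries (4.12% to 25.9%), whereas they overlapped for regions of 3 libraries with other patterns (right).

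The gained regions were peaks of middling strength. The percentile of their fold enrichment among all peaks of a library had a median of 49.3, 38.4, 44.9 and 37.0 in BCAS 1 to 4, while that of other intronic peaks was 44.6 to 45.1. Their median fold was 5.86, 5.10, 5.55 and 5.25, and their lowest -log10 q in any BCAS library was 1.91. Summits of the 4 BCAS libraries lay within a median of 51 bp of each other, and within 100 bp in 1213 regions. As the rule joins overlapping peaks of all 4 libraries, close summits are partly set by it. No such spread was taken for other intronic regions. The nearest sham peak was a median of 3338 bp away, and 258 regions (18.1%) had one within 1 kb. By mean percentile, 487 lay above 50 and 263 below 25.

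The strongest regions lay in genes of varied function. By mean percentile over the 4 BCAS libraries, the highest was in intron 52 of 78 of Dnah5 (chr15:28374385-28374905), which encodes a dynein of motile cilia, with folds of 17.3, 11.9, 12.3 and 12.7 in BCAS 1 to 4. The nearest TSS was 130546 bp away and the nearest sham peak 22184 bp, and the promoter of Dnah5 had no peak in any library. The Lrmda region with the PU.1 sequence, described above, was the third.

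The next were regions in predicted gene Gm37800, in Eya4, a transcriptional cofactor with phosphatase activity, in Rftn1, which encodes the lipid raft protein raftlin, and in Peli2, a ubiquitin ligase of Toll-like receptor signaling. The folds of the Rftn1 region were 13.8, 8.97, 12.2 and 10.7. Those of the Peli2 region were 12.5, 11.4, 10.2 and 9.85. The remaining ones of the first 10 lay in Ccdc146, in Cd36, a scavenger receptor for lipids (chr5:17854246-17854984, 739 bp in intron 1 of 15, 10.9, 9.52, 11.8 and 9.06), and in the predicted gene E130114P18Rik. Of these 10, the windows in Lrmda and Gm37800 held the PU.1 sequence, and those in Dnah5, Eya4 and Cd36 were among those that held C/EBP. That in Cd36 also held MEF2, as did that in Rftn1, that in Ccdc146 the interferon response element, and that in E130114P18Rik the long ETS and MAF sequences.

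The 1429 regions fell into 1169 host genes, 9.56% of the 12222 genes with any intronic region. Of the host genes, 978 held 1 gained region, 138 held 2 and 53 held 3 or more, and 1040 were protein-coding. More than 1 gene held the midpoint of 57 gained regions (3.99%, against 4.28% of other intronic regions), and 1 host was then chosen. Gm20388, a predicted read-through transcript that spans several genes, held 6 and was left out of the description by gene. The most after that, 5 each, lay in Prkch, Elf1 and Ssh2.

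Elf1 encodes a transcription factor of the ETS family that is common in blood cells. All 5 of its gained regions lay in intron 1 of 8, between 22.6 and 54.3 kb from the TSS, among 10 intronic regions of the gene. The first of them (chr14:79503438-79504062, 625 bp) had folds of 8.33, 8.48, 7.58 and 5.98 in BCAS 1 to 4, and the last (chr14:79535346-79535674) had 8.72, 6.33, 6.97 and 6.82. A further pair of intronic regions had a peak in 3 BCAS and no sham library. A region at an internal TSS, 34.5 kb from the first, had a peak in all 4 BCAS and no sham library as well. The main promoter and the intronic regions at 6.28 and 68.3 kb had a peak in all 8 libraries. None of the 5 windows held the PU.1 sequence, and that of the first held RUNX.

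Ssh2 encodes a slingshot phosphatase, which activates the actin-severing protein cofilin. Its 5 gained regions, of 16 intronic regions, lay in introns 2, 5 and 13 of 14, and 4 of them formed pairs about 1 kb apart, at 155.1 and 156.1 kb and at 193.8 and 195.2 kb from the TSS. The region at 156.1 kb had folds of 8.55, 6.65, 7.51 and 6.71 in BCAS 1 to 4, and that at 195.2 kb had 7.72, 6.79, 6.79 and 7.03. The intronic regions at 132.1 and 230.5 kb on either side of these were open in all 8 libraries.

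Prkch, the protein kinase C isoform eta, held 5 of 32, and Etv6, an ETS repressor of blood cell development, held 4 of 52. In Prkch, the region in intron 1 at chr12:73610849-73611148 held both the PU.1 and the AP-1 sequence (folds of 5.40, 5.44, 4.67 and 5.29), and 3 others lay within 13230 bp in introns 9 and 10. Runx1, a master factor of blood cells that also marks activated microglia, held 3 of 24, in introns 2 and 6 of 7. Its strongest (chr16:92801577-92802009) had folds of 6.78, 8.48, 8.99 and 9.06 and held the MAF and NEUROD1 sequences.

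Vav2, an exchange factor for small GTPases downstream of immune receptors, held 4 of 29. The region in intron 2 of 27 (chr2:27350334-27350755) held both PU.1 and PU.1-IRF sequences, with folds of 7.93, 7.27, 7.75 and 6.00 in BCAS 1 to 4, and that in intron 4 (chr2:27311651-27311992) held PU.1-IRF and NEUROD1, with 10.6, 7.39, 8.23 and 6.92. Klhl6, an adaptor of a ubiquitin ligase known from B cells, held 3 of 5, all in intron 1 of 6. The region at chr16:19973441-19973957 had 9.52, 10.5, 6.17 and 8.44, and the promoter of Klhl6 had a peak in 2 sham and in 4 BCAS libraries. Aim2, the inflammasome sensor of cytosolic DNA, held 4 of 19 within 22742 bp. Its long transcript of 115.2 kb lies among related genes of the interferon-inducible p200 family, where reads can be shared between copies, so the host of these regions is uncertain.

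**Figure D4:**
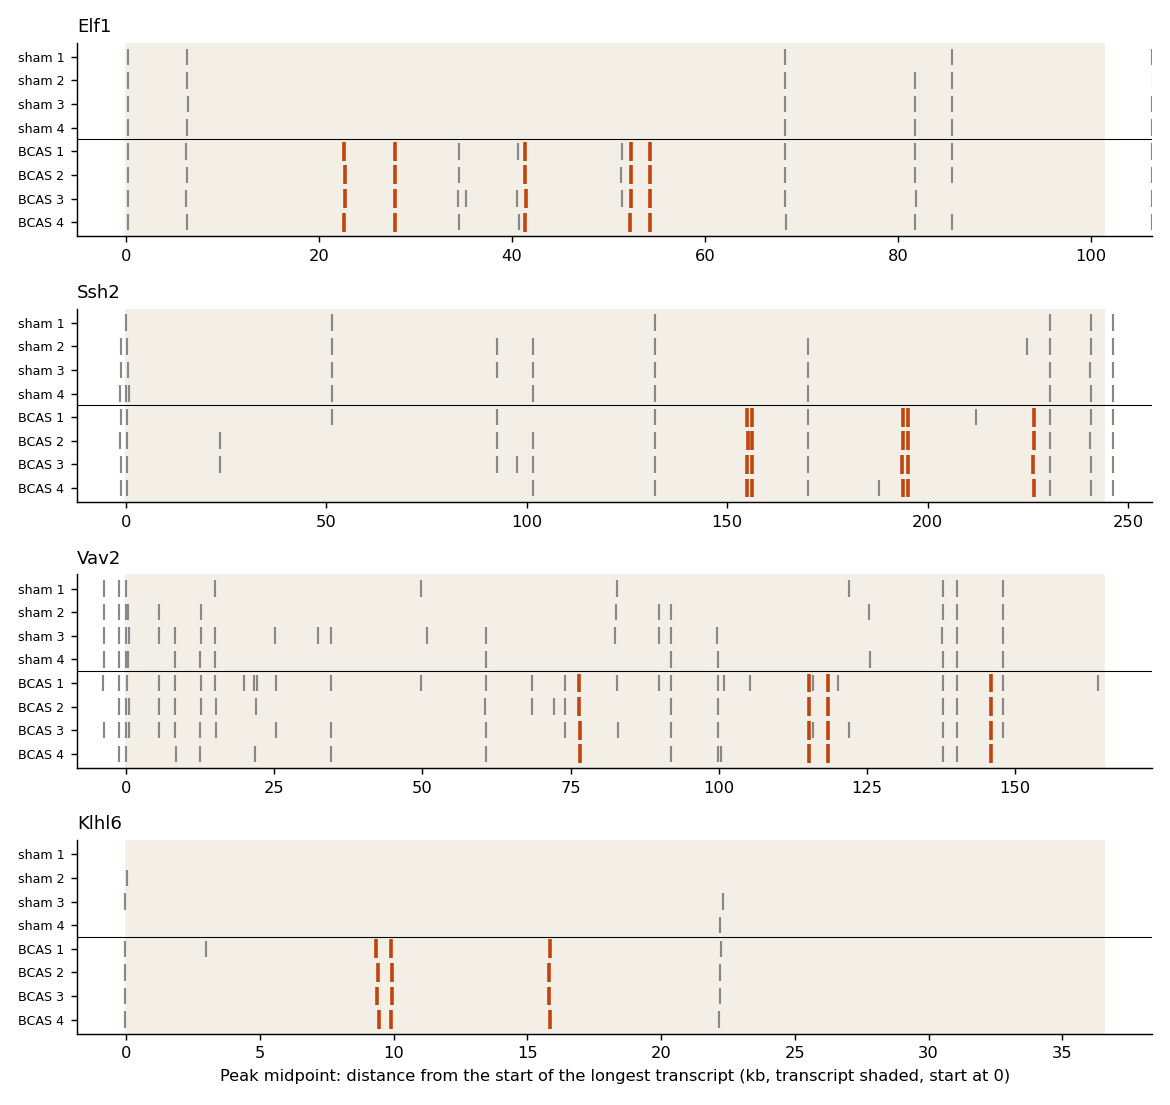
Peak midpoints along Elf1, Ssh2, Vav2 and Klhl6 by library (vertical axis) and distance from the TSS of the longest transcript in kb (horizontal axis, transcript shaded). Orange ticks are peaks in gained intronic regions (5, 5, 4 and 3 regions) and gray ticks all other peaks, including those near the promoter; ticks mark midpoints and not widths.

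Magi1, a scaffold of cell junctions, held 4 of 92, Pard3b 4 of 41 and Tns3, a tensin of focal adhesions, 4 of 41. Ubac2, a membrane protein of the endoplasmic reticulum, held 4 of 27. Its region at chr14:121958732-121959021 also lay within a further gene, Gpr183, so its host is uncertain. All 4 regions of Tns3 lay within 27775 bp in introns 3 and 4 of 30, with folds between 3.85 and 8.04. Sh3kbp1, which encodes the endocytic adaptor CIN85, held 3 of 42, and the one in intron 2 held PU.1 and MAF sequences. Lrmda (of 53) and Cradd, an adaptor of caspase-2 (of 30), held 3 each. At every one of these 7 genes, with Gpr183 not counted, the promoter had a peak in all 8 libraries.

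Host genes were also grouped by function. Of all intronic regions, 1.63% were gained, and this share is the background for each list. Of the 12222 genes with an intronic region, 9.56% were hosts. This host share rose with the intronic regions per gene, from 152 of 5505 genes with 1 or 2 to 80 of 216 with 51 or more. The host counts of the lists are therefore given without a comparison. Among genes of the cytoskeleton and adhesion of leukocytes, 13 of 27 genes with an intronic region were hosts, and 23 of their 417 intronic regions were gained (5.52%, Wilson 95% interval 3.70 to 8.14%). They included Lcp1 and Coro2a, a coronin, where all 4 regions held the PU.1 sequence, and Rin3, a Rab5 exchange factor. For Coro2a, the folds were 7.88, 7.13, 5.97 and 6.68 in BCAS 1 to 4 at chr4:46574917-46575546 and 5.78, 6.63, 6.43 and 5.88 at chr4:46583783-46584119. Both lay in intron 1 of 11.

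Among genes of phagocytosis and Fc receptor signaling, 10 of 28 were hosts and 16 of 353 intronic regions were gained (4.53%, 2.81 to 7.24%). Beside Vav2 and Plcg2 they included Lyn, a Src family kinase, and Dock8, an exchange factor for Cdc42. The Dock8 region in intron 1 of 47 (chr19:25006736-25007089) had folds of 9.30, 8.73, 10.4 and 9. That of Lyn in intron 1 of 12 (chr4:3724738-3725051) held the PU.1-IRF and interferon response sequences, with folds of 5.60, 6.25, 6.32 and 5.06. The paper had picked Vav2, Plcg2, Lyn and the further hosts Syk and Pik3cg as phagocytosis genes from these libraries and its RNA-seq. The list therefore partly reflects the same data, and its share is no independent result.

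In the list of pattern recognition and the inflammasome, 4 of 14 genes were hosts (7 of 92 regions, 7.61%, 3.73 to 14.9%), namely Aim2, Irak2 and Nfkb1, which act in Toll-like receptor signaling, and Tlr7, a sensor of RNA. The Tlr7 region, which held NEUROD1, had folds of 7.99, 5.45, 7.26 and 5.41. Aim2, whose regions have an uncertain host, held 4 of the 7, and without it the share was 3 of 73 (4.11%, 1.41 to 11.4%), an interval that includes the background of 1.63%. Of chemokines and cytokine receptors, 4 of 16 genes were hosts (5 of 69, 7.25%, 3.13 to 15.9%). These were Il15, with 2 of its 3 intronic regions, and the receptors Il21r, Il6ra and Il17ra. Without Il15 the share was 3 of 66 (4.55%, 1.56 to 12.5%), which also includes the background. The Il21r region (chr7:125617944-125618357) held PU.1-IRF, with folds of 7.96, 7.47, 8.81 and 9.01.

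Lysosome and lipid genes had 6 hosts of 18 (8 of 139 regions, 5.76%, 2.94 to 10.9%), among them the cathepsin Ctsh with 2 of 3 intronic regions, the cholesterol carriers Npc1 and Npc2, the exporter Abca1 and Nceh1, which hydrolyses cholesterol esters. The single region of Atp6v0d2 held PU.1, RUNX and C/EBP sequences within 1 window. Border macrophage and monocyte genes had 3 hosts of 10 (3 of 46 regions, 6.52%, 2.24 to 17.5%): Cd36, Msr1 and the mannose receptor Mrc1. Without Cd36 it was 2 of 43 (4.65%, 1.28 to 15.5%), again with the background inside the interval. The Mrc1 region (chr2:14249833-14250455, 623 bp) had folds of 6.66, 6.45, 7.10 and 7.74 and lay 44933 bp from the nearest sham peak.

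The shares were 3.68% (5 of 136, 1.58 to 8.32%) for microglia and 4.69% (3 of 64, 1.61 to 12.9%) for disease-associated microglia, and both intervals included the background of 1.63%. The microglial hosts included Runx1 and the TGF-beta receptor Tgfbr2, and those of the second list were Ctsb, Ank and Dkk2. Interferon-stimulated genes had 1 host of 11, Usp18, which removes ISG15 (folds of 8.61, 7.13, 7.71 and 7.39), antigen presentation had Cd86, a costimulatory receptor, and lymphocyte genes had Ikzf1 and Ets1. The intervals of these 3 lists included the background.

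Among lists of neural, glial and vascular genes, the excitatory neuron list alone had an interval below the background. Of 760 intronic regions in 20 genes of excitatory neurons, 2 were gained (0.263%, 0.0722 to 0.954%), in Rbfox1, a splicing factor, and the potassium channel gene Kcnq3. The other 6 intervals included 1.63%. Genes of inhibitory neurons had 0 of 151 (up to 1.987% with 3 counts), and mural and fibroblast genes 0 of 44 (up to 6.818%). Astrocyte genes had 1 of 109 (0.917%, 0.162 to 5.01%), in Cd44, which also stands in the leukocyte list. Oligodendrocyte genes had 1 of 52 (1.92%, 0.340 to 10.1%), in Mbp, and their precursors 2 of 246 (0.813%, 0.223 to 2.92%), in Tnr and Megf11. Endothelial genes had 3 of 106 (2.83%, 0.967 to 7.99%), in Fli1, an ETS factor of endothelium and blood, and Flt1, a VEGF receptor. Over the 11 immune and lysosome lists together, 75 of 1443 intronic regions were gained (5.20%, 4.17 to 6.47%) in 50 genes, and over the 7 neural, glial and vascular lists 8 of 1408 (0.568%, 0.288 to 1.12%) in 7. Here each gene was counted once, and Cd44 and Bcl11b, which stand in lists of both kinds, were counted with the immune lists only. Of these 75 and 8 regions, 16 (21.3%, 13.6 to 31.9%) and 1 held the PU.1 sequence. The share of intronic regions that were gained also moved with the number of intronic regions per gene, from 2.04% in genes with 1 or 2 to 0.750% in genes with 51 or more, and its part in the differences between lists was not tested.

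**Figure D5:**
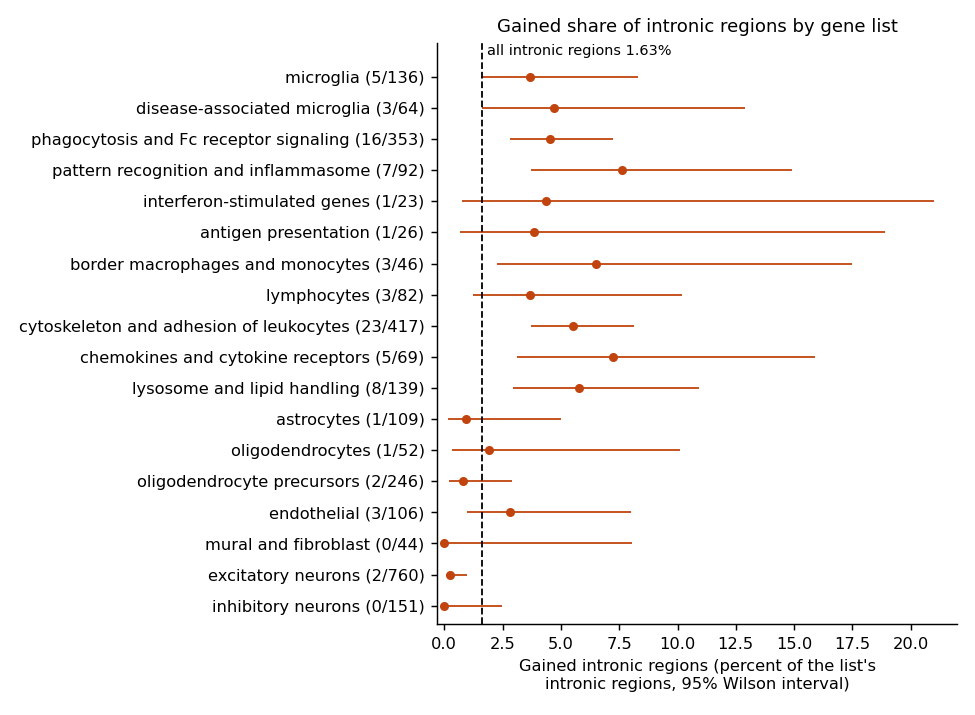
Percent of the intronic regions in the genes of each list that were gained (horizontal axis; bars are Wilson 95% intervals; gained and all intronic regions in parentheses). The dashed line marks 1.63% of all intronic regions; the list of leukocyte cytoskeleton and adhesion lay at 5.52% and that of excitatory neurons at 0.263%.

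Gained intronic regions lay closer to promoters than other intronic regions. The median distance to a TSS was 15843 bp against 21417 bp for the others and 22014 bp for regions called in 4 libraries of another pattern. A share of 32.0% (29.6 to 34.4%) lay 3 to 10 kb from a TSS, against 24.3% of the others (7.64 points, 5.25 to 10.1). A share of 12.2% lay beyond 50 kb against 22.1% (-9.92 points, -11.5 to -8.10). At the limit of 3000 bp, the nearest regions inside it lay 3014, 3017 and 3022 bp from a TSS (in Nhlrc3, Gm26786 and Asb2), and those just outside, in Zc3h12a, Fmnl3 and Gm21969, 2996, 2993 and 2981 bp.

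They also lay more often in the first intron. The first intron of the longest transcript held 457 gained regions (32.0%, 29.6 to 34.4%), against 26.9% of other intronic regions, a difference of 5.09 points (2.71 to 7.58). The difference was 4.82 points (2.16 to 7.55) against introns of 4 libraries of another pattern and 5.67 points (3.24 to 8.18) against those of all 8 libraries. The last intron held 9.45% against 8.10%, where the interval of the difference included 0 (-0.0706 to 2.99 points). Host introns were shorter, with a median of 22045 bp against 31077 bp. So were host transcripts, with 95771 bp against 151466 bp. The share within 1 kb of an exon edge was 19.5% against 19.1%, a difference whose interval included 0. Along the gene, 52.6% lay in the 5′ part before the midpoint against 48.2% of the others (4.46 points, 1.85 to 7.06).

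In width, gained regions were like other regions called in as many libraries. Their median was 360 bp (quartiles 310 and 433 bp), against 343 bp (298 and 419 bp) for introns of 4 libraries of another pattern and 556 bp for those of all 8 libraries. Single peaks had a median of 310, 273, 289 and 267 bp in BCAS 1 to 4, below the 331, 319, 319 and 321 bp of other intronic peaks in each library. The widest measured 1083 bp.

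Gained regions were often near each other. Within 50 kb of another gained intronic region lay 364 of them (25.5%, 23.3 to 27.8%), whereas 11.2% (10.3 to 12%) of introns called in 4 libraries of another pattern lay that close to a gained one, a difference of 14.3 points (11.9 to 16.8). They formed 159 groups of 2 or more and 36 of 3 or more, the largest being the groups of 5 in Elf1 and Ssh2. In the same intron as another lay 210 (14.7%). A further gained region outside introns lay within 50 kb of 204 (14.3%). Dense groups of 3 were found in Klhl6 within 6921 bp and in Cd84, a SLAM family receptor of leukocytes, within 7755 bp. The closest midpoints lay 451 bp apart. Peaks that did not overlap counted as separate regions, as in Ctsh (chr9:90059873-90060201 and chr9:90060319-90060719). Whether such neighbors are parts of 1 open stretch was not tested. By chromosome, the gained share of intronic regions ranged from 1.13% on chromosome 18 to 2% on chromosome 11, and 0 of 14 were gained on Y.

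Most host genes had a promoter peak in the sham libraries as well. A peak lay within 3 kb of a TSS in all 8 libraries at 999 of 1169 host genes (85.5%, 83.3 to 87.4%), against 75.01% of the 11053 other genes with an intronic region. At 65 host genes (5.56%) no library had a promoter peak, as at Dnah5 and Atp6v0d2. At 13 host genes (1.11%, 0.651 to 1.89%) every BCAS and no sham library had one, against 0.389% (0.289 to 0.524%) of the other genes. Host genes held a median of 10 intronic regions, against 3 over all genes with one. The part of this in the promoter differences was not tested. Among the 13 host genes with such a promoter, which were looked up after the values were seen, Cd84 and Cd101 held 3 gained intronic regions each. Both encode immunoglobulin family receptors of leukocytes. Havcr2, which encodes the checkpoint receptor TIM-3, and Fyb, an adaptor of integrin signaling, held 2 each. Ptprc, which encodes the leukocyte antigen CD45, Cd86, Scimp and Alox5, the 5-lipoxygenase of leukotriene synthesis, held 1 each, as did Patl2, Stra6l, Olfm4, Tekt3 and the predicted gene Gm43821. As the promoter calls come from the same libraries as the rule, they describe these genes and carry no test.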

How the data were processed

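ATAC-seq libraries of 4 sham and 4 BCAS mice were used, 1 per mouse. Upstream of the deposited lists, the authors worked with FastQC and Trim Galore, mapped reads to mm10 (Bowtie2 2.3.4.3; SAMtools 1.9), discarded duplicates and ran MACS2 on every library separately. DiffBind stands in the submitters' processing notes too. Neither the MACS2 options nor any shift for Tn5 is named there. Each deposited peak carries an integer score (not used), a ratio (fold enrichment over background at the summit) and -log10 p and -log10 q values. Folds and -log10 q are relative to the library itself, so they ranked peaks within a library and were not compared between groups.

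Peaks on 21 chromosomes (1028949, with 861 on other contigs left out) were merged where they overlapped by 1 bp. Transcripts came from GENCODE M21 (basic). A host was the gene of the longest transcript around the midpoint, protein-coding genes first. Sequence came from GRCm38 (RefSeq). The members, gene lists, motifs and comparisons were chosen with earlier results of these data known. No test was run across regions, and shares carry Wilson and differences Newcombe 95% intervals. These, and the limit of 3 counts for a count of 0, cover counting error only. Named were the first 15 host genes by number of members (ties by mean percentile, predicted genes left out), up to 4 hosts per list by the same order, the 10 strongest regions and 8 sequences with the PU.1 sequence, none from chromosome 18. Genes outside this rule were named after their values were seen. Some items that the rule names are not reported here. Alternatives were -log10 q of at least 5, lists of equal length (107391 peaks), each library left out, 1 kb in place of 3 kb, protein-coding genes only, regions wholly outside exons, summits within 250 bp in place of overlap, other motif windows, any transcript for the first intron and other cluster distances. The rule, the motif search and the intervals were tested on simulated data. Python 3.11.15, numpy 2.4.6, pandas 2.3.3, scipy 1.17.1 and matplotlib 3.10.9 were used.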

Additional observations from a re-analysis of the deposited data

Results flagged for a closer look

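In 8 of 150 groups of 4 libraries, 1 library stood apart from the other 3 by more than Dixon's critical value, and chance flags about 1 in 20 groups. BCAS 1 had a median width of 331 bp for its other intronic peaks, above the other BCAS libraries. BCAS 1 also stood high in fold enrichment at the Dnah5 region (17.31) and at a Prkch region in intron 10 (7.658). BCAS 3 stood high at a Tns3 region in intron 4 (7.443) and low at a Rin3 region in intron 1 (4.569). BCAS 2 stood low at a Cradd region (5.43) and at the Kcnq3 region (3.279), and high at the Rbfox1 region (6.03).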

How the results depend on the processing

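The number of gained intronic regions stayed between 1283 and 2073 under every alternative run, within 1.5 times 1429. It was 1324 with -log10 q of at least 5 and 1283 with lists of equal length, and 995 (69.6%) and 936 (65.5%) of the 1429 regions were among those. Leaving out 1 library gave 1482 to 2073 regions, a PU.1 share of 13.1 to 15.3%, a first-intron share of 30.7 to 32.3%, a median width of 335 to 365 bp and a share within 50 kb of another of 25.6 to 29.5%; with fewer libraries the rule asks for fewer calls. The PU.1 share was 10.8% within 50 bp of the summit and 17.4% over the whole region, against 1.63% and 4.40% of other intronic regions. It was 15% around the summit of the strongest peak, an alternative chosen after seeing the data. Counting the first intron of any transcript gave 37.1%, and the share near another gained region was 9.87% within 10 kb and 35.5% within 100 kb. Leaving out of each gene list its host gene with the most gained regions, also chosen after seeing the data, brought the background of 1.63% inside the interval for 3 of the 6 lists that lay above it (without Aim2, Il15 and Cd36: 4.11%, 4.55% and 4.65%). No paired analysis was possible because no result comes from a test. The lists limit the report: a region without a peak may hold signal below the threshold, the reads behind a peak are unknown, and cell numbers cannot be told apart from openness per cell.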
